A study of Homo sapiens with 18 samples.

Results

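The mRNAs of 10 circadian clock genes were measured in U87MG glioblastoma cells, 10 of the 58302 genes for which reads were counted. They were chosen by name, and each symbol matched a single Ensembl identifier: the activator CLOCK, the repressors PER1, PER2, PER3, CRY1 and CRY2, the nuclear receptors NR1D1 and NR1D2, and the output factors DBP and BHLHE40. U87, a long-established human cell line from a glioblastoma, was grown in medium with serum. Control cells (2 libraries, normal growth condition) were compared with cells given Erastin, a small molecule that blocks the import of cystine, at 10 μM for 72 h (2 libraries). The labels name no vehicle for the control cells, and all 4 libraries came from the same cell line, so the comparison describes this line only. Each gene was seen at a single time point in cells not stated to be synchronized, so the height and the timing of any daily rhythm cannot be told apart.

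The molecular clock is a loop of transcription and repression that runs in most cells. CLOCK and BMAL1 pair and bind E-box elements of DNA, where they turn on the PER, CRY, NR1D and DBP genes. PER and CRY proteins then return to the nucleus and repress that pair, NR1D1 and NR1D2 repress BMAL1, and BHLHE40 competes for E-boxes. DBP acts further downstream through D-box elements, and astrocytes and glioma lines keep such clocks.

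After Erastin treatment, BHLHE40 mRNA rose 2.71-fold and those of CLOCK, NR1D1 and CRY2 by 31.1% to 45.9%. PER1 fell by 26.1%, PER2 fell by 35.1% and PER3 fell by 41.3%. CRY1, NR1D2 and DBP did not pass the test. Of the 10 genes, 4 rose and 3 fell at an adjusted p under 0.05 in edgeR's quasi-likelihood test, where 23.2% of the 16751 genes tested rose and 23.7% fell. In either direction 47.0% of all genes passed, and with 10 genes nothing particular to the clock is read from these counts. At the stricter threshold of the study, which also asks for a doubling or halving (log2 fold change of 1 or −1), only BHLHE40 was upregulated and 0 clock genes were downregulated, against 6.24% and 9.34% of all genes tested. The groups did not overlap in 8 of the 10 genes, with Erastin above in 4 and below in 4, as in 73.6%, 36.7% and 36.9% of all genes tested. The median log2 fold change of the 10 genes was 0.07 and the median size, without sign, was 0.54, whereas all genes tested had −0.003 and 0.43.

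**Figure D1:**
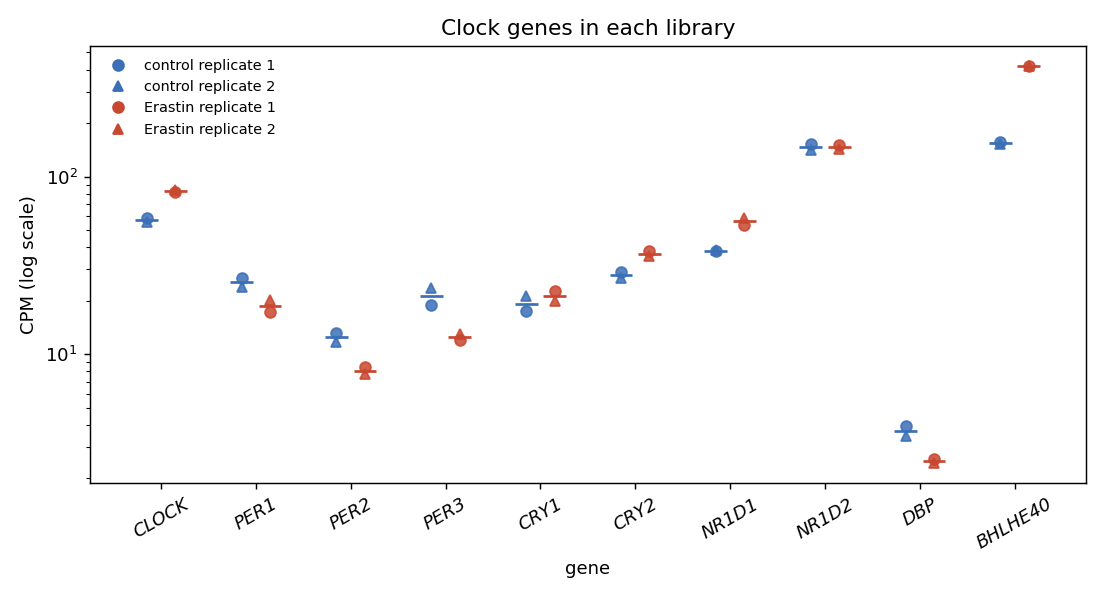
Level of each clock gene in each library, in CPM on a log scale, with control libraries in blue, Erastin libraries in red and a bar at the mean of 2 libraries. BHLHE40 sits at 156 and 153 CPM in control cells and 417 and 421 CPM after Erastin, while the red points of PER1, PER2 and PER3 all lie below the blue ones.

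Clock factors act through short elements in promoters. The promoters shown are those of the 3 PER genes, both NR1D receptors and BHLHE40, which include each promoter of the 10 genes that holds an E-box or a D-box. The sequences came from RefSeq (GRCh38.p14), which gave 14 promoters for all 10 genes, each from 250 bases before to 50 bases after a transcription start. Printed 5′ to 3′ on the gene's strand, capitals mark the E-box CACGTG, the related E′-box CACGTT and the D-boxes TTATGTAA and TTACGTAA, searched on both strands. PER1 (chr17:8152355-8152654, minus strand) holds an E-box, PER2 (chr2:238288561-238288860, minus strand) an E′-box and a D-box, and PER3 (chr1:7784041-7784340, plus strand, the first of 2 starts) a D-box. NR1D1 (chr17:40100540-40100839, minus strand) holds an E′-box, the second promoter of NR1D2 (chr3:23945871-23946170, plus strand) 2 E-boxes and a D-box, and BHLHE40 (chr3:4979187-4979486, plus strand) an E-box.
PER1: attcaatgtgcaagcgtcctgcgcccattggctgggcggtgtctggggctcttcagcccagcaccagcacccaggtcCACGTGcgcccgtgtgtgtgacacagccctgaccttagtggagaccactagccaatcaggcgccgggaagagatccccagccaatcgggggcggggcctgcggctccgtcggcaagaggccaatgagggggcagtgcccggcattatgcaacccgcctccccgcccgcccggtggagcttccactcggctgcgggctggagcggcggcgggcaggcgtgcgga
PER2: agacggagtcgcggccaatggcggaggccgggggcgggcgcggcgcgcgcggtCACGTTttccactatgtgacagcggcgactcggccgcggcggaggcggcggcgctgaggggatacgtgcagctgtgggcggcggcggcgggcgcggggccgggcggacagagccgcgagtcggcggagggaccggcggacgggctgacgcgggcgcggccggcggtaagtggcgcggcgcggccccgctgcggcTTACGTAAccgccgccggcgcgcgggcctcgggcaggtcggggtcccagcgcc
PER3: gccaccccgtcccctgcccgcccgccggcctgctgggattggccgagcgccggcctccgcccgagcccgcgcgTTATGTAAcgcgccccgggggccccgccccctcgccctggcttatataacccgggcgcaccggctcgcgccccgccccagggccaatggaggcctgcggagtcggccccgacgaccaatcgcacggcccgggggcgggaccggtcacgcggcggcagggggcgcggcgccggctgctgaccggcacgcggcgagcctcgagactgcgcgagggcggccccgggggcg
NR1D1: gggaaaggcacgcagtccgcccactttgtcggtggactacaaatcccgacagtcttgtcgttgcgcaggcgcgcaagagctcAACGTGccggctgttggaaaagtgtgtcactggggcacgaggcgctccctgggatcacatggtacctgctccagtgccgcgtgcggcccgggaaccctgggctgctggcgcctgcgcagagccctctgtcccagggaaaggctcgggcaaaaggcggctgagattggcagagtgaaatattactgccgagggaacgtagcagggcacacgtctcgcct
NR1D2: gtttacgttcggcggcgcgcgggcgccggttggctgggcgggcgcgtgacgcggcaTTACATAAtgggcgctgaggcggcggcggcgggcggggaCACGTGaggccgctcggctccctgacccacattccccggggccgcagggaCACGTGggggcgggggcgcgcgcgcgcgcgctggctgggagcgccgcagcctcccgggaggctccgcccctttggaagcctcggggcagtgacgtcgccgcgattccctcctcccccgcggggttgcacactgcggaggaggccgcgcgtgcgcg
BHLHE40: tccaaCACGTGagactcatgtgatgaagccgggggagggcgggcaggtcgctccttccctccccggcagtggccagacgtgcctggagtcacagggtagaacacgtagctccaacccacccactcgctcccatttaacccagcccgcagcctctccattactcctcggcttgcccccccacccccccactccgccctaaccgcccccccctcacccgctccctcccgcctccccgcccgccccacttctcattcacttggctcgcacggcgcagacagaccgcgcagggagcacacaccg

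The E-box occurred in 3 of the 14 promoters, those of PER1, NR1D2 and BHLHE40, and in 7.26% of all 35116 promoters of the same length. The E′-box occurred in 5 of the 14 and 5.34% of all promoters, and a D-box in 3 of the 14 and 1.01%. Among the E-box promoters, PER1 fell, BHLHE40 rose and NR1D2 did not pass the test, so genes with this element did not share a direction. E′-boxes stood in promoters of CLOCK, CRY2 and NR1D1, which rose, of PER2, which fell, and of CRY1, which did not pass the test. D-boxes stood in the promoters of PER2 and PER3, which fell, and of NR1D2. The short form of the element bound by NR1D and ROR receptors, TAGGTCA or TGGGTCA, occurred in 3 of the 14 promoters (second promoters of CLOCK, CRY2 and NR1D2) and 5.69% of all, and the cyclic AMP element TGACGTCA in 0 of the 14 and 1.85% of all. Such matches are letters only, and binding was not measured here.

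CLOCK (ENSG00000134852, chromosome 4 of GRCh38, 55427903 to 55547138, minus strand) encodes the activator that opens each cycle. Its level was 58.7 and 55.8 CPM (counts relative to the TMM-scaled library total) in the control libraries and 82.2 and 84.2 CPM in the Erastin libraries. Both Erastin libraries lay well above both controls, with means of 57.2 ± 2.06 and 83.2 ± 1.39 CPM (SD, n = 2 each). The rise of CLOCK was 0.54 on the log2 scale (standard error 0.0742, edgeR adjusted p = 9.18e-05). Its 26 exon blocks share 103 of 11762 bases with other genes, where reads were not counted.

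CLOCK has a close relative, NPAS2, which can take its place beside BMAL1. NPAS2 moved the other way: it fell from 80.9 and 77.6 CPM to 43.2 and 47.8 CPM, or −0.80 on the log2 scale (standard error 0.0822, edgeR adjusted p = 8.76e-06). In RPKM, the reads scaled to exon length and library size, the ratio of CLOCK to NPAS2 went from 0.770 and 0.763 in control libraries to 2.02 and 1.87 in Erastin libraries. NPAS2 was thus the more abundant of the pair in each control library and CLOCK in each Erastin library. Their summed level was 11.2 ± 0.366 RPKM in control cells and 10.7 ± 0.381 RPKM in Erastin-treated cells (SD, n = 2 each), and the libraries of the groups overlapped. Ratios and sums of this kind were not tested, since with 2 libraries a group the smallest p of an exact permutation test is 0.333.

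Of the partners of CLOCK, BMAL2 fell and BMAL1 did not pass the test. BMAL1, its main partner, had 28.3 and 28.6 CPM in control cells and 31.5 and 32.7 CPM in Erastin-treated cells, and its log2 fold change was 0.17 (95% interval −0.04 to 0.39, adjusted p = 0.174 from edgeR). BMAL2, a paralog that can also pair with CLOCK, fell from 117 and 106 CPM to 39.5 and 39.7 CPM, with a log2 fold change of −1.495 (95% interval −1.67 to −1.32, adjusted p = 3.39e-08 from edgeR). The intervals of the pair did not overlap. Per length, BMAL1 stood at 0.251 and 0.279 of the level of BMAL2 in control libraries and at 0.827 and 0.856 in Erastin libraries.

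**Figure D2:**
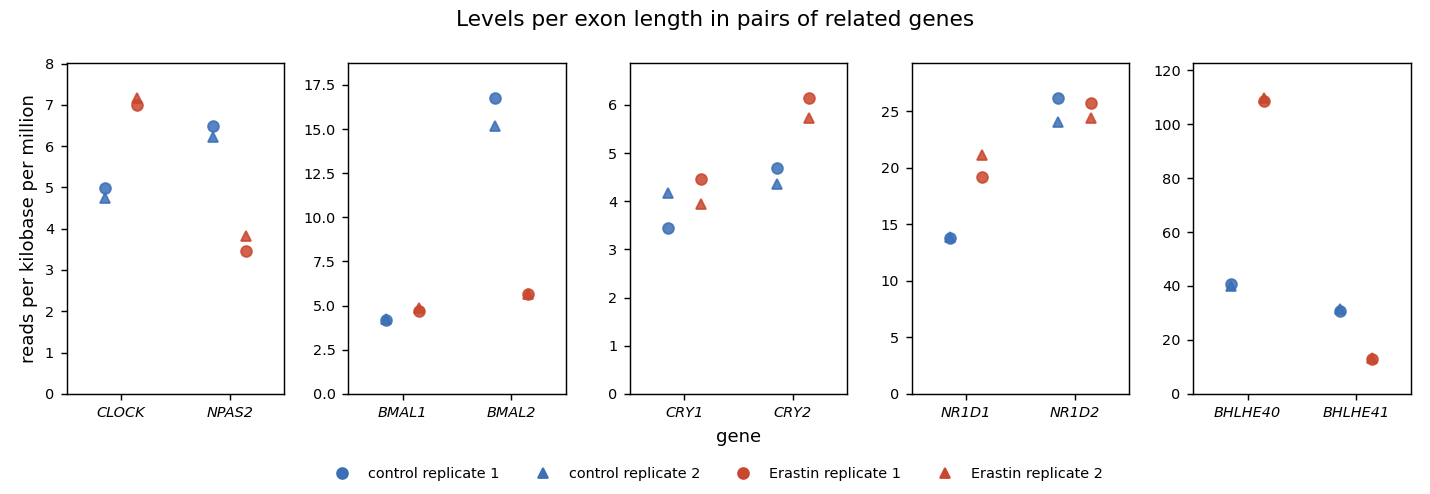
Levels per exon length (RPKM, linear axes from 0) of 5 pairs of related clock genes in each control (blue) and Erastin (red) library. CLOCK and NPAS2 change order between the groups, and BHLHE40 and BHLHE41 move from a ratio near 1.29 to one near 8.35.

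The PER genes, whose proteins carry the repressing complex into the nucleus, fell together. PER1 (ENSG00000179094, chromosome 17, 8140472 to 8156506, minus strand) had 26.9 and 23.8 CPM in control libraries and 17.4 and 20.2 CPM in Erastin libraries. PER2 (ENSG00000132326, chromosome 2, 238244038 to 238290102, minus strand) had 13.2 and 11.7 CPM against 8.43 and 7.70 CPM. PER3 (ENSG00000049246, chromosome 1, 7784320 to 7845177, plus strand) had 18.9 and 23.7 CPM against 12.04 and 13.0 CPM. In each of the 3 genes both Erastin libraries lay below both controls, and the controls of PER3 spread most.

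The log2 fold changes were −0.44 for PER1 (standard error 0.124, adjusted p = 0.0128 from edgeR), −0.62 for PER2 (standard error 0.157, adjusted p = 0.00634) and −0.77 for PER3 (standard error 0.142, adjusted p = 8.39e-04). Their 95% intervals overlapped, from −0.71 to −0.16, from −0.97 to −0.28 and from −1.08 to −0.46, and the differences among them were not tested. PER1 lost the call without the first control replicate (edgeR adjusted p = 0.0517) or the first Erastin replicate (0.119) and kept it without the second control replicate (0.00102) or the second Erastin replicate (0.0125). Summed per length, the PER genes went from 8.10 and 8.03 to 5.19 and 5.61 RPKM. PER1 stood at 2.00 and 2.01 times the level of PER2 in control libraries and 2.02 and 2.57 times in Erastin libraries. PER3 stood at 1.22 and 1.73 times the level of PER2 against 1.21 and 1.43 times, with overlap between the groups. On PER3, 16.7% of the exon bases also belong to UTS2 or to ENSG00000236266 on the opposite strand, which had at most 6 and 22 counts in any library.

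The CRY genes encode the partners of PER that bind and silence CLOCK and BMAL1. CRY2 (ENSG00000121671, chromosome 11, 45847118 to 45883248, plus strand) had 29.1 and 27.01 CPM in control libraries and 38.0 and 35.5 CPM in Erastin libraries. The groups did not overlap, and CRY2 rose by 0.39 on the log2 scale (standard error 0.101, edgeR adjusted p = 0.00748). Without the first Erastin replicate the adjusted p was 0.0730. CRY1 (ENSG00000008405, chromosome 12, 106991364 to 107093829, minus strand) had 17.4 and 21.2 CPM against 22.6 and 19.9 CPM, with overlap between the groups. Its log2 fold change was 0.14 with a 95% interval from −0.15 to 0.43 (adjusted p = 0.414 from edgeR), which includes the value of CRY2, so a difference between both genes was not shown.

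The summed levels of the PER and CRY families lay on opposite sides of their controls. CRY went from 8.14 and 8.53 RPKM in control libraries to 10.6 and 9.67 RPKM in Erastin libraries, while the PER sum was lower in both Erastin libraries, as given above. In control cells both sums were close, at 8.34 ± 0.276 RPKM for CRY and 8.06 ± 0.0552 RPKM for PER (SD, n = 2 each). After Erastin they lay apart, at 10.1 ± 0.663 and 5.40 ± 0.294 RPKM.

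NR1D1 and NR1D2 encode REV-ERB receptors, which sense heme and repress BMAL1. NR1D1 (ENSG00000126368, chromosome 17, 40092787 to 40100725, minus strand) had 38.2 and 38.5 CPM in control libraries and 53.3 and 58.7 CPM in Erastin libraries. Both Erastin values stood clear of the controls, and NR1D1 rose by 0.55 on the log2 scale (standard error 0.0879, edgeR adjusted p = 3.16e-04). NR1D2 (ENSG00000174738, chromosome 3, 23945260 to 23980618, plus strand) had 152 and 140 CPM against 150.0 and 142 CPM. Its groups covered the same range, and the log2 fold change was −0.00082 with a 95% interval from −0.16 to 0.16 (adjusted p = 0.995 from edgeR). That interval and the interval of NR1D1, from 0.35 to 0.74, did not overlap.

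In level per length NR1D1 came nearer to NR1D2, from 0.527 and 0.577 of it in control libraries to 0.746 and 0.865 in Erastin libraries. Of the exon bases of NR1D1, 9.49% are shared with THRA, the thyroid hormone receptor gene on the opposite strand, and reads there were left out. THRA moved the other way, with 1166 and 1172 counts in control libraries and 602 and 665 in Erastin libraries. Since strand was not used in counting, reads of the pair outside the shared bases were assigned by position only.

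DBP (ENSG00000105516, chromosome 19, 48630030 to 48637438, minus strand) encodes a D-box activator and is among the genes most directly driven by CLOCK and BMAL1. It was the lowest of the 10 genes, with 121 and 107 counts in control libraries and 77 in each Erastin library, or 3.96 and 3.44 CPM against 2.57 and 2.45 CPM. Both Erastin values lay below both controls. The log2 fold change was −0.56 with a 95% interval from −1.14 to 0.02, and the adjusted p of 0.106 from edgeR missed the threshold (unadjusted p = 0.0577). At this depth the interval takes in both no change and the value of PER2. SPHK2, which shares 661 of the 6544 exon bases of DBP on the opposite strand, had 579 and 522 counts in control libraries and 955 and 890 in Erastin libraries.

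BHLHE40 (ENSG00000134107, chromosome 3, 4979116 to 4985323, plus strand), also known as DEC1, encodes a repressor that answers to many stresses as well as to the clock. It had 4770 and 4765 counts in control libraries and 12472 and 13214 counts in Erastin libraries. After scaling these were 156 and 153 CPM against 417 and 421 CPM, with a spread in each group far smaller than the gap between them. BHLHE40 rose by 1.44 on the log2 scale (standard error 0.0639, 95% interval 1.30 to 1.58, edgeR adjusted p = 8.23e-09), and 644 of the 3892 genes that rose did so by at least this much, itself included. Its level per length exceeded that of 94.2% of all genes tested in control cells and 98.4% in Erastin-treated cells. BHLHE40-AS1, which shares 4 exon bases with it on the opposite strand, had 4 and 6 counts in control libraries and 35 and 34 in Erastin libraries.

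BHLHE41 (DEC2), the closest relative of BHLHE40, fell. It had 122 and 124 CPM in control libraries and 50.5 and 52.7 CPM in Erastin libraries, or −1.25 on the log2 scale (standard error 0.0715, 95% interval −1.41 to −1.10, edgeR adjusted p = 6.44e-08). The pair thus moved in opposite directions, each past the stricter threshold. Per length, BHLHE40 stood at 1.32 and 1.27 times the level of BHLHE41 in control libraries and at 8.49 and 8.22 times in Erastin libraries. The summed level of the pair went from 71.5 ± 0.0566 to 122 ± 1.02 RPKM (SD, n = 2 each).

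**Figure D3:**
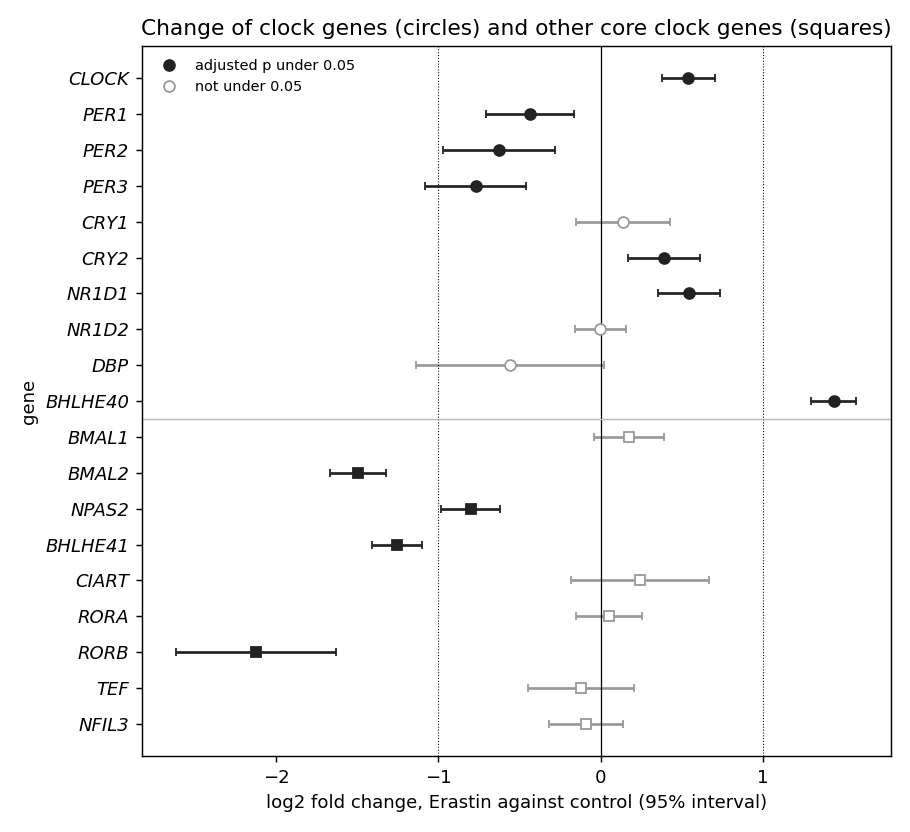
Log2 fold change of Erastin-treated against control cells with its 95% interval from edgeR for the 10 clock genes (circles) and 9 other core clock genes (squares), filled where the adjusted p was under 0.05. BHLHE40 is the only filled point above 1 (dotted lines at −1 and 1), and the filled squares, BMAL2, NPAS2, BHLHE41 and RORB, all lie below 0.

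Of 11 other core clock genes, 10 could be tested, of which 0 rose and 5 fell, beside 23.2% and 23.7% of all genes tested. With 10 genes, nothing particular to this list is read from these counts. Besides NPAS2, BMAL2 and BHLHE41, the genes that fell included RORB. It encodes a nuclear receptor of the family that activates BMAL1 through the elements that NR1D1 and NR1D2 bind. RORB fell from 9.88 and 7.92 CPM to 2.14 and 1.94 CPM (log2 fold change −2.12, adjusted p = 1.20e-05 from edgeR). RORA, a relative of RORB, had 59.9 and 69.4 CPM against 70.9 and 62.9 CPM, which overlapped (log2 fold change 0.05, 95% interval −0.15 to 0.25).

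Among factors that act at D-boxes beside DBP, TEF had 17.4 and 14.9 CPM in control libraries and 16.4 and 13.2 CPM in Erastin libraries (log2 fold change −0.12, adjusted p = 0.541 from edgeR), and HLF had at most 11 counts in any library and was not tested. NFIL3, which represses at the same elements, had 40.9 and 49.1 CPM against 44.2 and 40.3 CPM (log2 fold change −0.09, adjusted p = 0.519). CIART, a repressor of CLOCK and BMAL1, had 5.56 and 5.15 CPM against 6.18 and 6.49 CPM (log2 fold change 0.24, adjusted p = 0.335). TEF, NFIL3 and CIART thus did not pass in edgeR, and their groups overlapped except in CIART.

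The enzymes and cofactors that mark clock proteins or remove them formed a list of 17 genes, of which 16 were tested. Of these 7 rose and 4 fell, beside 23.2% and 23.7% of all genes tested, at a median of 0.14 on the log2 scale. Those described here were picked after their values were seen. CSNK1D, a kinase that marks PER proteins, rose from 138 and 137 CPM to 188 and 189 CPM (log2 fold change 0.46, adjusted p = 1.16e-04 from edgeR), whereas its relative CSNK1E went from 77.6 and 72.8 CPM to 65.3 and 63.6 CPM (log2 fold change −0.22, adjusted p = 0.0294, but 0.0734 from DESeq2). BTRC, a subunit of the ubiquitin ligase that removes PER, rose by a log2 fold change of 0.66 (adjusted p = 1.46e-04), while FBXW11, its paralog, fell by 0.32 on that scale (adjusted p = 0.00218). SIRT1, a deacetylase that acts on BMAL1 and PER2, rose by 0.89 (adjusted p = 4.38e-05). TIMELESS, known in human cells chiefly for its work at replication forks, had 56.6 and 54.9 CPM against 37.0 and 34.2 CPM (log2 fold change −0.65, adjusted p = 8.47e-05).

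Of 8 genes known as clock-controlled in other tissues, 6 rose and 2 fell, with 1 in each direction past the stricter threshold, beside 23.2% and 23.7% of all genes tested, and 6.24% and 9.34% past that threshold. TSC22D3, a glucocorticoid-induced leucine zipper gene, rose from 12.2 and 14.8 CPM to 40.5 and 34.0 CPM (log2 fold change 1.46, adjusted p = 3.22e-06 from edgeR). WEE1, a kinase that holds back mitosis, fell from 49.7 and 54.4 CPM to 20.8 and 20.2 CPM (log2 fold change −1.34, adjusted p = 5.48e-07). NAMPT, which makes a precursor of NAD, rose by 0.46, and KLF9, named after its value was seen, fell by 0.57 on the log2 scale (adjusted p = 8.21e-05 and 0.00302). Over the 34 tested genes of these 3 lists, 13 rose and 11 fell, at a median of 0.09 and a median size of 0.48 on the log2 scale, where all genes tested had −0.003 and 0.43.

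In level per length the order of the 10 genes was the same in both groups: BHLHE40, NR1D2, NR1D1, CLOCK, CRY2, CRY1, PER1, PER3, PER2 and DBP. Control means ran from 40.3 for BHLHE40 down to 25.1, 13.8, 4.86, 4.53, 3.81, 3.63, 2.63, 1.81 and 0.566 RPKM. Among neighbours in control cells, CLOCK (4.86 ± 0.175), CRY2 (4.53 ± 0.243) and CRY1 (3.81 ± 0.519) each differed from the next by less than the sum of their SDs (n = 2 each). The next after CRY1 was PER1 (3.63 ± 0.316). After Erastin the same places held 7.07 ± 0.118, 5.94 ± 0.285, 4.20 ± 0.379 and 2.68 ± 0.285 RPKM, each apart from the next by more than that sum. Lengths counted every annotated exon, whether or not it was used in these cells.

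The genes most like BHLHE40 in profile were ZBTB21, PSAT1 and TNFRSF12A, those whose log2 CPM over the 4 libraries, centred on its mean, lay nearest among 9507 other genes of at least 10 CPM. Their distances were 0.0311, 0.0401 and 0.0605 and their log2 fold changes 1.43, 1.41 and 1.42. For PER3, which had the smallest p of the genes that fell, they were PGM2L1, ARMH4 and LUC7L3 at distances of 0.0667, 0.0774 and 0.0805, with log2 fold changes of −0.72, −0.74 and −0.69. With 4 libraries in 2 groups, this measure of likeness is set mainly by the size of the change.

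Library totals lay between 29412656 and 31513519 counts, with a biological coefficient of variation of 10.3%. The glioblastoma line markers VIM, CD44, CAV1 and NES were expressed and all 4 fell, their summed level going from 4622 to 4714 CPM in control libraries to 3154 to 3358 CPM in Erastin libraries. The labels give brain as the tissue, but among markers of glial tissue AQP4 had 0 counts and GFAP at most 2.58 CPM. Neuron markers summed to 52.6 and 57.4 CPM and then 12.9 CPM in each Erastin library (2 of 3 fell), endothelial markers to at most 6.18 CPM (1 rose, 1 fell, CDH5 at 0 in both control libraries) and leukocyte markers to at most 0.700 CPM. Mitochondrial transcripts took 7.85% and 7.23% of the counts in control libraries and 2.80% and 3.54% in Erastin libraries. The part of these shifts in the clock genes' values was not tested, and in bulk RNA fewer cells of a kind and less RNA per cell cannot be told apart.

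**Figure D4:**
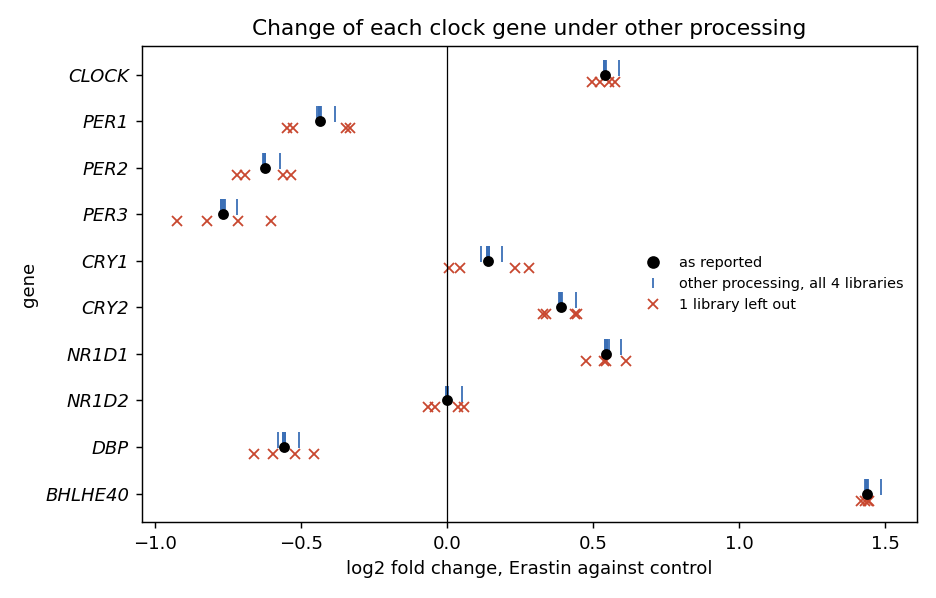
Log2 fold change of each clock gene as reported (black), under other processing of all 4 libraries (blue bars) and with 1 library left out (red crosses). Values of 9 genes stay on the same side of 0, and those of NR1D2 lie between −0.07 and 0.06.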

How the data were processed

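The analysis used the RNA-seq data of U87MG cells, with 2 control and 2 Erastin libraries grouped by their labels, which the study calls biological replicates. The authors deposited raw read counts per gene. Per the table header they came from featureCounts 2.0.3 (2.0.4 in the submitters' processing notes, while the methods name htseq-count) with the Ensembl release 90 annotation of GRCh38, after HISAT2 2.1.0. Each read was counted on its own, strand was not used, and reads on more than 1 gene or place were left out. The deposited columns were checked for decimals, as estimated counts would have, and held whole numbers only. Symbols came from GENCODE release 44 and matched 57532 of 58302 identifiers.

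The test was edgeR 4.0.16 (R 4.3.3): filterByExpr at a minimum count of 10 left 16751 genes, all 10 clock genes among them, followed by TMM scaling and the two-sided quasi-likelihood test with Benjamini-Hochberg adjustment over all genes tested. A standard error is the log2 fold change over the root of F. P-values rest on a variance shared across genes. The genes and lists were chosen with earlier results of these data known, and no p was adjusted over a list. Genes named are the 10 clock genes, all other core clock genes, those of the remaining lists past an adjusted p of 0.05 and a log2 fold change of 1 in size, and the nearest profiles of the called gene with the smallest p in each direction, unless said otherwise. Some genes of the lists are included in their counts but not reported here by name. Alternatives were DESeq2 1.42.0, RLE factors, library totals, no filter, 10 counts in every library, a replicate block, thinning to the smallest library, read pairs, glmTreat and each library left out. Both tools were tested on simulated data. Reads without molecular identifiers are not independent molecules. ChIP-seq and HiChIP were not analysed here.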

Additional observations from a re-analysis of the deposited data

How the results depend on the processing

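For the 10 clock genes, 112 of 120 values under the alternatives kept their direction and their side of the threshold. PER1 (2 values) and CRY2 (1 value) lost the call when a library was left out, and NR1D2 changed sign around 0 in 5 values: 0.0019 with DESeq2, 0.00044 with RLE factors, 0.0496 with library totals, and between −0.0667 and 0.0566 with each library left out. The counts of clock genes called kept within 1.5 times under every alternative with a value. Of the 264 values for the other named clock genes, 252 kept direction and side, 8 lost the call (5 of them of CSNK1E) and 4 changed sign. The latter all came from leaving out a library, where RORA ran from −0.0548 to 0.151, TEF from −0.289 to 0.0298 and NFIL3 from −0.218 to 0.0390. With glmTreat, which tests the fold change itself against the threshold, 377 genes were upregulated and 748 downregulated over all genes, in place of 1046 and 1564. The labels number the replicates without a stated pairing, and the deviations of same-numbered libraries correlated at 0.0293 across genes. With the replicate block, 4030 genes rose and 4077 fell, and the clock genes gave 4 and 3 as without it. Library totals moved the median of all genes to 0.0471, from −0.00259. DBP had 77 to 121 counts per library with 2 libraries per group, and whether depth kept it from passing was not tested.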
